A study of Sus scrofa with 30 samples.

Results

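The regions described here are the ends of the pig autosomes. Chromosomes 1 to 18 were divided into 100 kb bins from position 0, and a bin was an end bin when it lay within 5 Mb of either end, the chromosome length being the largest peak end in any list. This gave 1800 end bins, 50 at each of 36 ends, of 22665 bins in all, and left 20865 other bins. The end bins spanned 179.1 Mb, or 7.90% of the 2266 Mb binned. They held 1990 of 18721 coding genes, which is 11.1 genes per Mb against 8.02 in the other bins. Genes covered about as much of the ends (47.8%) as of the rest (47.7%), and 47.2% of end bins held no coding gene, against 56.1% of other bins.

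Subtelomeric regions lie just inside the telomeres and in mammals are often rich in genes, in CpG-dense sequence and in recombination. H3K4me3, a trimethylated lysine in the tail of histone H3, marks active and poised promoters and in mouse oocytes also spreads over broad domains away from promoters, which the demethylases KDM5A and KDM5B help to remove in the embryo. H3K27me3, trimethylation of another lysine of the same tail, is laid down by Polycomb complexes over silent developmental genes and, in oocytes, over wide domains that can carry maternal information into the embryo. Chromosomes 13 to 18 of the pig are acrocentric, with the centromere close to one end.

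Both marks were profiled by native chromatin immunoprecipitation scaled to very few cells, in pig germinal vesicle (GV) and metaphase II (MII) oocytes and in embryos made by in vitro fertilisation, and the labels give no breed or age. H3K4me3 had 8 stages (16 libraries), from the GV oocyte over the MII oocyte and the 1-cell, 2-cell, 4-cell and 8-cell embryo to the morula and the blastocyst. H3K27me3 had 6 of these (12 libraries), lacking the GV oocyte and the 1-cell embryo. In addition, 2 H3K4me3 libraries came from 4-cell embryos whose zygotes had been injected with small interfering RNA against KDM5B and KDM5C (siKDM5BC), H3K4 demethylases. These were set against the 2 uninjected 4-cell libraries, because no library of embryos injected with a control RNA was used here, so injection and knockdown cannot be told apart, and peak lists do not measure the level of the targeted genes. Every group had 2 libraries, and nothing in the labels says that the 2 came from separate collections, so the tests speak of the spread among these libraries, which may be technical.

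Each library was a list of broad peaks on the build susScr11, with no read total, so depth is unknown. The value used throughout is the covered share, the percent of a bin's or region's length inside a peak. The covered length on chromosomes 1 to 18 ran from 31.0 Mb (4-cell replicate 2) to 173.9 Mb (siKDM5BC replicate 1) for H3K4me3 and from 1.25 Mb (2-cell replicate 2) to 98.1 Mb (blastocyst replicate 2) for H3K27me3. The 2 siKDM5BC lists differed from the other 28 in holding peaks on unplaced sequences (1.31% and 1.30% of their peaks). The replicates stood furthest apart in 1-cell H3K4me3, where replicate 1 covered 68.7 Mb and replicate 2 covered 138.6 Mb, and in 8-cell H3K27me3, where replicate 1 covered 5.50 Mb and replicate 2 covered 33.0 Mb.

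Both marks covered more of the ends than of the rest in every one of the 30 libraries as deposited. When the strongest peaks up to 1 common covered length for each mark were taken from each library, 1 of them, morula H3K4me3 replicate 1, was below an even share (0.94-fold). As a fold, the excess was greatest for H3K27me3 in MII oocytes, where 16.6% and 14.5% of the end bins' length was covered in replicates 1 and 2, against 1.88% and 1.62% of the other bins. The ends, 7.90% of the length, therefore held 43.0% and 43.5% of all H3K27me3-covered length at that stage. As a fold, the smallest excess was that of H3K4me3 in morulae, with 5.97% and 6.83% of the ends covered, against 5.29% and 5.85% of the other bins.

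For H3K4me3 the end excess was 3.30- and 4.89-fold in GV oocytes and 4.53- and 4.57-fold in MII oocytes. It was 1.48- and 2.83-fold at the 1-cell stage, 3.46- and 2.90-fold at the 2-cell stage and 3.39- and 2.92-fold at the 4-cell stage. The later stages were lower, with 1.49- and 1.77-fold at the 8-cell stage, 1.13- and 1.17-fold in morulae and 1.60- and 1.61-fold in blastocysts. Oocytes and cleavage embryos up to 4 cells, apart from 1-cell replicate 1, thus lay above all 8-cell, morula and blastocyst libraries in the lists as deposited. At 1 common covered length GV oocyte replicate 1 had 1.40-fold, below the 8-cell (1.53- and 1.66-fold) and blastocyst (1.52- and 1.52-fold) libraries. The siKDM5BC libraries had 4.83- and 5.16-fold, above both uninjected 4-cell libraries.

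For H3K27me3 the excess was 8.80- and 8.98-fold in MII oocytes and 2.03- and 1.60-fold at the 2-cell stage, where only 0.164% and 0.0844% of the ends was covered. It was 1.51- and 1.31-fold at the 4-cell stage and 1.64- and 1.64-fold at the 8-cell stage. It was larger again in morulae (2.26- and 2.43-fold) and in blastocysts (3.20- and 3.35-fold). In blastocysts 9.36% and 12.2% of the ends carried the mark, against 2.92% and 3.65% of the other bins. MII oocytes and blastocysts thus stood above the 4 stages between them in both the level and the ratio of the lists as deposited. At 1 common covered length the ratio of blastocysts (2.07- and 2.48-fold) was below that of morulae (2.53- and 2.63-fold).

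**Figure D1:**
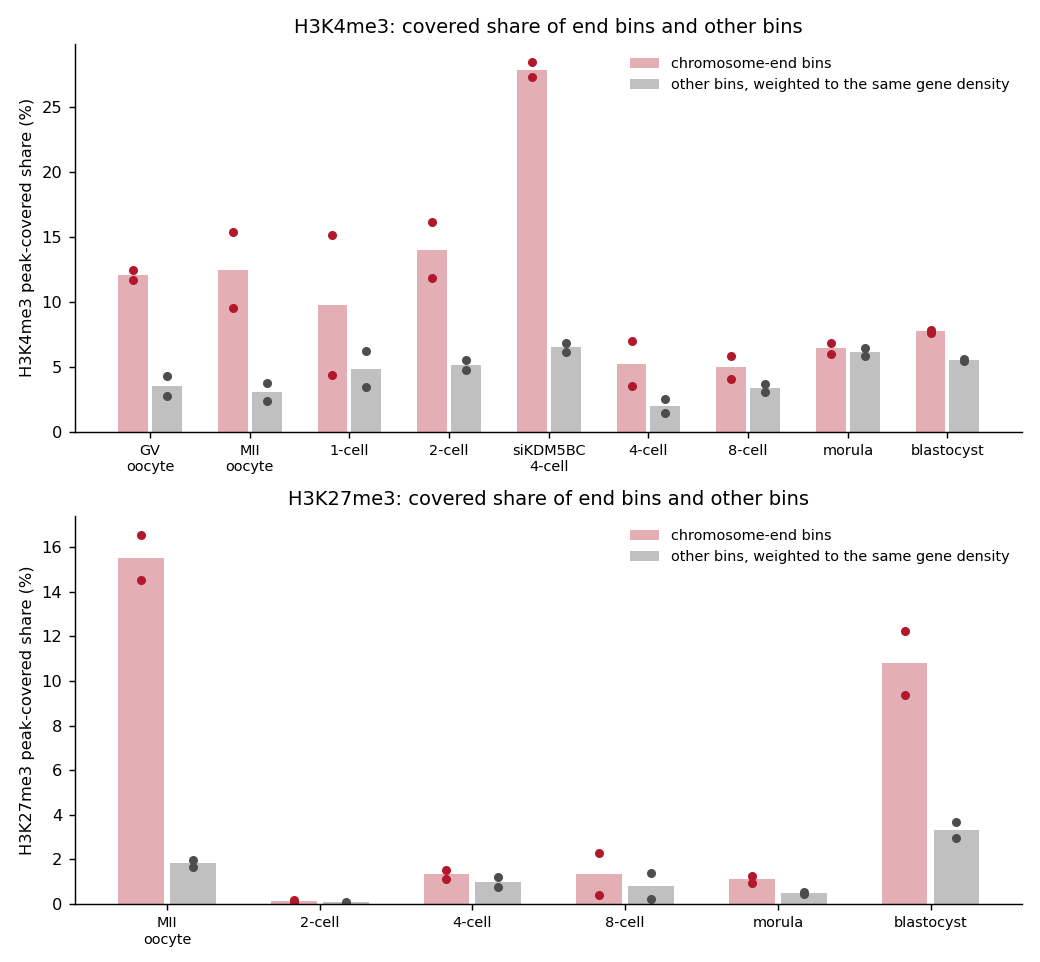
Peak-covered share in percent by stage for H3K4me3 (top) and H3K27me3 (bottom), in end bins (red) and in other bins weighted to the end bins' coding gene counts (grey); points are the 2 libraries and bars their mean. The siKDM5BC ends reach 28.4% and 27.3%, and H3K27me3 on the ends is high in MII oocytes and blastocysts and near 0 at the 2-cell stage.

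Over stage means, the log2 ratio of end to other bins averaged 1.27 for H3K4me3 and was above 0 at 8 of 8 stages (exact sign-flip permutation test, two-sided, p = 0.00781, the smallest the design allows; 0.0195 after Benjamini-Hochberg adjustment over 10 tests). With other bins weighted to the end bins' coding gene counts it was 1.07 (exact permutation p = 0.00781, adjusted 0.0195). For H3K27me3 the average was 1.36, above 0 at 6 of 6 stages, and 1.33 at equal gene density. Both gave the smallest p 6 stages allow (exact permutation p = 0.03125), which did not pass after adjustment (0.0521). The ratio of H3K27me3 exceeded that of H3K4me3 by 0.17 over the 6 shared stages, which did not pass (exact permutation p = 0.594). The H3K4me3 results did not pass when the strongest peaks up to 1 common covered length were taken from each library (1.14, and 0.84 at equal gene density, both adjusted 0.0521). All stages share the same end bins, so these p-values speak of the spread over stages. They do not measure how the ends compare with other sets of regions. The base composition of the bins was not tested.

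The end-to-other ratio differed between stages for both marks. Stage means of the log2 ratio spanned 1.99 for H3K4me3, between MII oocytes and morulae (permutation test of F, p = 0.00184, adjusted 0.00920), and 2.66 for H3K27me3, between MII oocytes and 4-cell embryos (p = 0.000320, adjusted 0.00320). With peaks of −log10 q of 3 or more the H3K4me3 span was 0.87 and did not pass (adjusted 0.248). It did not pass either with peaks of at least 3.5-fold enrichment, in percentage points, or at 1 common covered length, and at 1 common covered length the H3K27me3 span of 4.18 did not pass (adjusted 0.0521).

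Weighting the other bins to the ends' gene counts changed the H3K27me3 ratio little, to 8.49- and 8.69-fold in MII oocytes. In the 850 end bins with no coding gene, 15.9% ± 1.39 was H3K27me3-covered in MII oocytes, against 1.52% ± 0.166 of 11698 gene-free bins elsewhere (SD, n = 2). In end bins with at least 5 genes the share was 9.67% ± 0.927, against 2.25% ± 0.383 elsewhere. End bins with 2 and 3 genes had 17.1% and 18.2%, so the share did not run one way with the number of genes.

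H3K4me3 differed more with gene content. In MII oocytes it covered 10.3% ± 3.56 of gene-free end bins, against 1.79% ± 0.606 of gene-free other bins (SD, n = 2). In end bins with 3 genes it covered 19.6% ± 5.63, against 5.29% ± 1.68, and in those with at least 5 genes 14.7% ± 4.61, against 7.96% ± 2.53. In morulae, gene-free bins had 3.99% ± 0.524 at the ends, against 3.91% ± 0.371 elsewhere, and bins with at least 5 genes had 12.9% ± 0.862 at the ends, against 14.4% ± 0.539 elsewhere. At equal gene density the morula ratios were 1.02 and 1.07, the lowest of the 30 libraries.

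**Figure D2:**
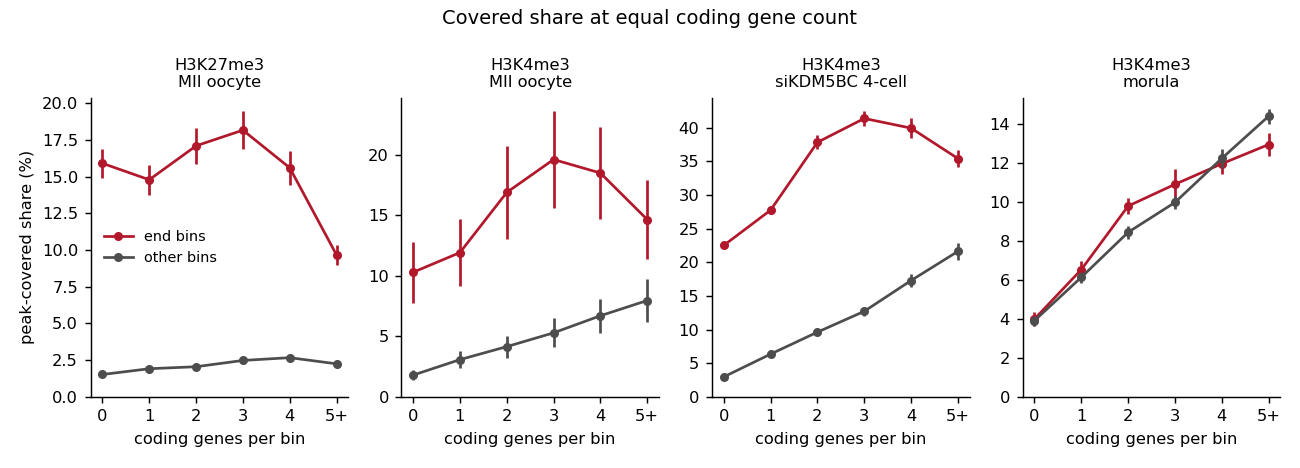
Covered share in percent against the number of coding genes per 100 kb bin (5+ means 5 or more) in end bins (red) and other bins (grey); points are means of 2 libraries and vertical lines join the libraries. In MII oocytes and siKDM5BC embryos the end bins lie above the other bins at every gene count, and in morulae the lines run close together.

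The excess fell off with distance from the end. H3K27me3 in MII oocytes covered 18.7%, 20.7%, 18.2%, 11.3% and 8.39% of the 5 successive 1 Mb steps from the end inwards. The next step, outside the end bins, had 6.40%, and between 15 and 17 Mb the share was 1.07% and 0.80%. Blastocysts ran from 12.7% in the first step to 6.78% in the fifth and 2.93% in the 1 between 16 and 17 Mb. H3K4me3 of siKDM5BC embryos covered 34.7% of the first step, 15.9% of the sixth and 4.31% between 16 and 17 Mb. The first step of morula H3K4me3 had 8.45%, and every later step to 20 Mb lay between 4.47% and 6.80%.

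**Figure D3:**
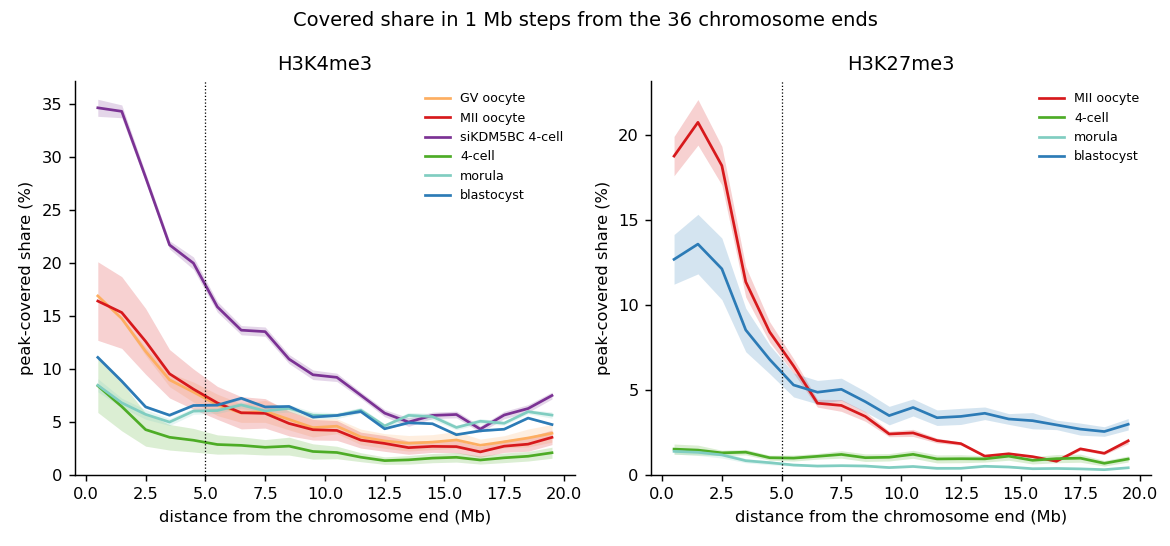
Covered share in percent in 1 Mb steps from the 36 chromosome ends inwards to 20 Mb, for H3K4me3 (left) and H3K27me3 (right); lines are means of 2 libraries, shading joins the libraries and the dotted line marks 5 Mb. H3K27me3 of MII oocytes is highest in the second step (20.7%) and under 2% beyond 12 Mb, and morula H3K4me3 is nearly flat.

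Most but not all ends carried the excess. In MII oocytes 30 of 36 ends lay above the rest of their own chromosome in both libraries for either mark, and the same count held for H3K4me3 in GV oocytes, 2-cell embryos and siKDM5BC embryos. The 6 ends below the rest of their chromosome in GV oocyte, MII oocyte and siKDM5BC H3K4me3 were the same in all 3 groups: the far end of chromosome 5 and the starts of chromosomes 10, 13, 15, 16 and 17. All of these except the start of chromosome 13 were also below in MII oocyte H3K27me3.

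Whether the assembly starts of the acrocentric chromosomes 13 to 18 are their centromeric ends was not tested. These starts had 4.10 coding genes per Mb and 4.91% ± 0.294 H3K27me3 coverage in MII oocytes, most of it on chromosome 18. The start of chromosome 18 had 20.8%, that of chromosome 14 had 5.997%, and those of chromosomes 13, 15, 16 and 17 had 0.76%, 0.54%, 0.83% and 0.57%. The far ends of chromosomes 13 to 18 had 28.6%, and the starts and far ends of chromosomes 1 to 12 had 15.8% ± 1.69 and 14.1% ± 1.49 (SD, n = 2). The far end of chromosome 16 was highest, with 38.5%. The same order held for siKDM5BC H3K4me3, with 40.4% at the far ends of chromosomes 13 to 18, 33.4% and 25.9% at the starts and far ends of chromosomes 1 to 12, and 8.37% at the starts of chromosomes 13 to 18. The start of chromosome 5 was highest there (48.9%), followed by the start of chromosome 2 (48.3%).

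The gene-rich start of chromosome 9, with 215 coding genes, was among the poorer ends. It had 3.26% H3K27me3 coverage in MII oocytes and 12.7% H3K4me3 coverage in siKDM5BC embryos. The far end of chromosome 9, with 17 genes, had 25.3% and 36.4% for the same measures. On this chromosome the end with more genes thus had less of both marks. The same held on chromosomes 3 and 18, but on most chromosomes the end with more genes had more of both. The start of chromosome 2, with 126 genes, had 30.5% and 48.3%, against 2.86% and 13.6% at its far end, with 61 genes.

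**Figure D4:**
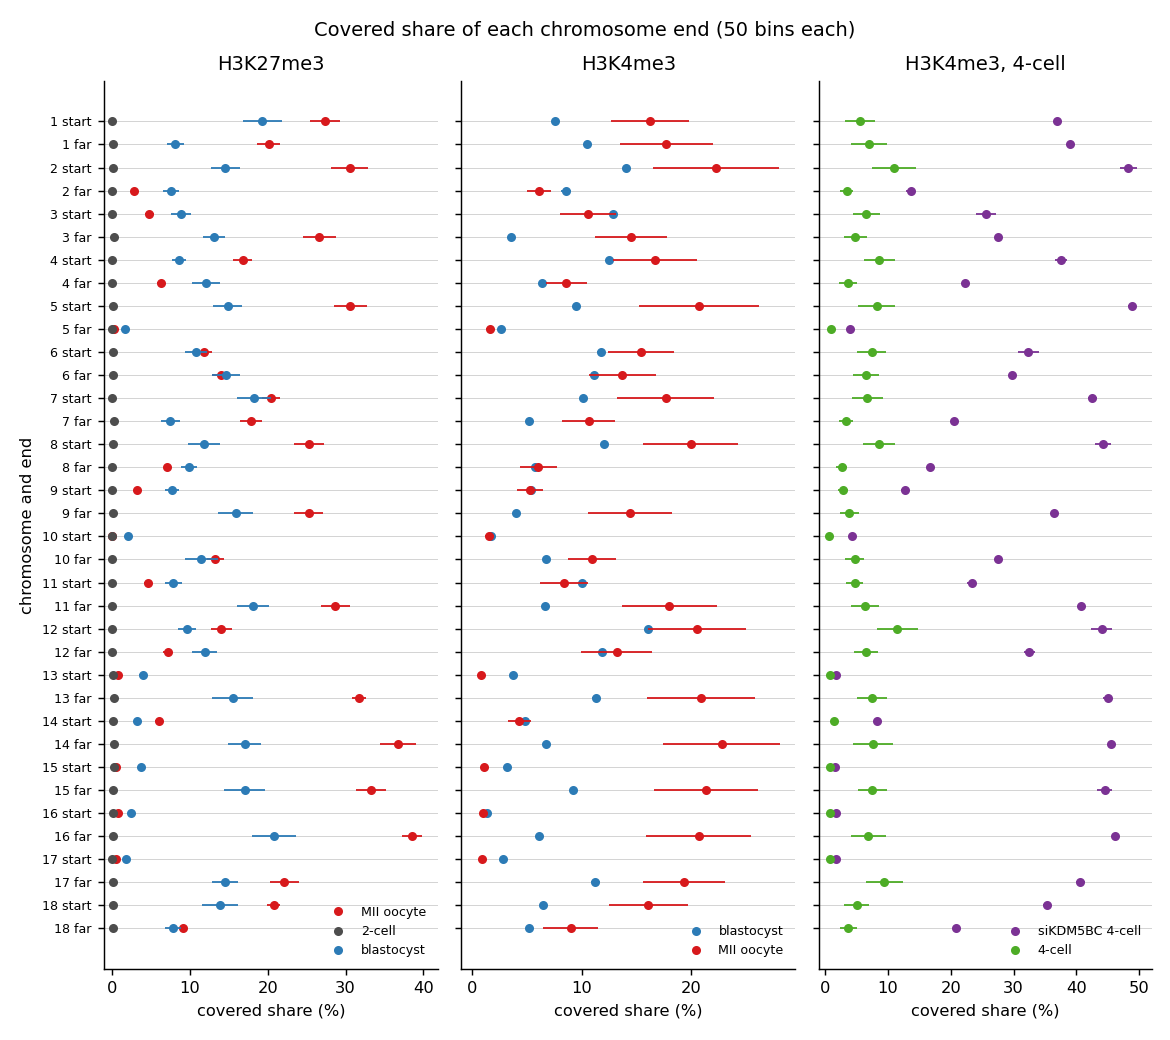
Covered share in percent of each of the 36 ends, named by chromosome and side, for H3K27me3 (left), H3K4me3 (middle) and H3K4me3 at the 4-cell stage (right); points are means of 2 libraries and lines join the libraries. The starts of chromosomes 10, 13, 15, 16 and 17 and the far end of chromosome 5 stay low in siKDM5BC embryos while the other ends lie far above uninjected 4-cell embryos.

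Many of the most strongly covered bins lay at the ends, which make up 7.90% of the length. Ranked by the mean covered share over stages, 86 of the top 100 bins for H3K27me3 and 51 of the top 100 for H3K4me3 were end bins. Stages with wide coverage weigh most in this mean, for H3K27me3 MII oocytes and blastocysts. The highest end bin for H3K4me3, on chromosome 12 between 1300001 and 1400000, overlaps ACTG1 (a cytoplasmic actin), BAHCC1 and FSCN2. It was covered by 45.5% and 62.5% in MII oocytes, 20.3% and 21.4% in morulae and 32.6% and 33.9% in blastocysts, and by 95.0% and 95.2% in siKDM5BC embryos, against 40.3% and 15.9% in uninjected 4-cell embryos. The highest end bin for H3K27me3 lay on chromosome 11 between 77800001 and 77900000, with no coding gene, and was covered by 88.0% and 83.8% in MII oocytes and by 51.8% and 61.6% in blastocysts. The next, on chromosome 7 between 800001 and 900000, overlaps FOXC1, a forkhead factor of eye and heart development, and had 62.2% and 49.6% in MII oocytes and 80.3% and 83.3% in blastocysts. The other 4 highest end bins for H3K4me3 lay on chromosome 12, next to the first (BAHCC1 and SLC38A10), and between 600001 and 1000000 of chromosome 4, with PLEC and EPPK1, genes of cytolinker proteins, among their genes. For H3K27me3 the others lay near the far end of chromosome 3, where a bin with PXDN had 98.0% and 94.1% in MII oocytes, and on chromosome 15 at KIF1A, a kinesin of axonal transport.

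In MII oocytes the marks lay on much of the same sequence at the ends. Of the H3K4me3-covered length at the ends, 52.6% and 46.7% was also H3K27me3-covered in the library of the same number, against 17.3% and 14.9% in the other bins, while H3K27me3 covered 16.6% and 14.5% of all end length, against 1.88% and 1.62% of all other length. Wider coverage raises such overlap by itself, and overlap relative to coverage has a lower ceiling where coverage is greater. Neither measure therefore tells whether the marks coincided more at the ends than in the other bins. Of the H3K27me3-covered length, 30.3% and 49.4% was also H3K4me3-covered at the ends, against 19.3% and 30.9% elsewhere. In blastocysts, 15.5% and 14.1% of the H3K27me3-covered length at the ends also carried H3K4me3, against 26.98% and 24.0% elsewhere, so the H3K27me3 of the ends overlapped H3K4me3 less than that of the other bins. Of the H3K4me3-covered length, 19.1% and 21.9% carried H3K27me3 at the ends, against 16.6% and 17.98% elsewhere. The lists do not tell whether both marks sat in the same cells.

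Peaks at the ends were also wider in some groups. In MII oocytes 51.4% and 40.3% of the H3K27me3-covered end length lay in peaks of at least 5 kb, against 15.4% and 8.73% elsewhere. In siKDM5BC embryos the H3K4me3 figures were 58.0% and 57.6% at the ends, against 22.2% and 21.1% elsewhere, and in uninjected 4-cell embryos 4.47% and 1.79% at the ends, against 3.88% and 1.81% elsewhere. The widest end peak of any list, 117022 bp on chromosome 17 in siKDM5BC replicate 2, took in CHRNA4 and COL20A1. Over all stages the end excess in broad share averaged 2.71 percentage points for H3K4me3 (exact permutation p = 0.0781, adjusted 0.112) and 5.18 for H3K27me3 (p = 0.688), and neither passed. Both averages turned negative with peaks of −log10 q of 3 or more (-9.81 and -12.0).

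Replicates overlapped more at the ends than elsewhere in 8 of the 15 groups. More covered length raises such overlap by itself, and every library covered more of the ends than of the rest. Overlap beyond that was not tested. The Jaccard index, the shared over the joint covered length of the 2 libraries, was 0.579 at the ends in MII oocyte H3K27me3, against 0.297 elsewhere. In siKDM5BC embryos it was 0.683 at the ends, against 0.495 elsewhere. In MII oocyte H3K4me3 it was 0.304 at the ends and 0.227 elsewhere, and in blastocyst H3K4me3 0.632 and 0.634. In 2-cell H3K27me3 it was 0.0704 at the ends and 0.0756 elsewhere, so the few peaks of that stage were largely not shared between its libraries.

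The siKDM5BC libraries addressed the role of the 2 demethylases in H3K4me3 of pig embryos. The ends were covered by 28.4% and 27.3% in siKDM5BC embryos, against 6.98% and 3.47% in uninjected embryos. The other bins had 5.89% and 5.29%, against 2.06% and 1.19%. The log2 ratio of end to other bins was higher by 0.66, with no overlap between the groups in the lists as deposited, but 2 libraries against 2 cannot give an exact permutation p below 0.333, which is the value obtained. The difference was 0.31 when only the outer 2 Mb counted as ends 0.33 at 1 common covered length, where the groups overlapped (1.49 and 1.97 in siKDM5BC embryos, against 1.25 and 1.55 in uninjected ones), and 1.504 with peaks of −log10 q of 3 or more.

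Across all bins, limma called 28.1% higher and 0.0677% lower in siKDM5BC embryos at an adjusted p under 0.05. Of 1772 end bins tested, 1273 rose (71.8%), against 24.3% of the other bins tested, and 0 fell by limma (2 at an unadjusted p under 0.05). The median difference was 18.4 percentage points in end bins and 1.04 over all bins. Because the siKDM5BC lists covered 173.9 and 159.4 Mb, against 55.4 and 31.0 Mb in uninjected 4-cell lists, scaling to the same total covered length changed the split to 477 end bins higher and 93 lower. Calls among the other bins were not counted in that run, so it does not compare the ends with the rest. The siKDM5BC lists also went down to lower enrichment (2.70- and 2.86-fold at the weakest peak, against 3.11- and 3.31-fold) and held the unplaced sequences noted above, and the part these play in the result was not tested.

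Most of the length that carried either mark at the ends in MII oocytes lay inside siKDM5BC peaks, which covered 28.4% and 27.3% of all end length, against 5.89% and 5.29% of all other length. Of MII oocyte H3K4me3 at the ends, 84.7% and 83.2% (replicates 1 and 2) lay inside peaks of the siKDM5BC library of the same number, against 61.7% and 58.2% in the other bins. Of MII oocyte H3K27me3 at the ends, 73.9% and 74.9% did so, against 39.6% and 38.7% elsewhere. For morula H3K4me3 the figures were 58.1% and 54.4% at the ends, against 33.4% and 29.5%. Wider coverage raises such overlap by itself. Overlap relative to coverage has a lower ceiling at the ends, where the siKDM5BC lists covered more. Neither measure therefore tells whether the overlap was closer at the ends than in the other bins. Seen from the siKDM5BC lists, 28.4% and 46.7% of their end length was H3K4me3-covered in MII oocytes, against 22.1% and 36.9% of their length elsewhere. H3K27me3 of MII oocytes covered 43.1% and 39.8% of the siKDM5BC end length, against 12.7% and 11.8% elsewhere.

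At the level of genes, each taken with 10 kb on both sides, 46.7% of all coding genes tested rose and 0.0834% fell in siKDM5BC embryos. Among end genes 1563 of 1895 rose and 1 fell. The largest rise was at CRYAA, a lens crystallin gene on chromosome 13 (206293877 to 206297050), with 93.5% and 91.2% covered in siKDM5BC embryos, against 6.99% and 1.06% in uninjected 4-cell embryos (difference 88.3 points, SE 11.3, adjusted p = 0.000133). BIRC7, an inhibitor of apoptosis on chromosome 17, was covered over its whole length in both siKDM5BC libraries (100% and 100%), against 17.8% and 5.76%. Its neighbour CHRNA4, a nicotinic acetylcholine receptor subunit, also had 100% and 100%, against 31.1% and 7.68%.

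AGXT, a liver enzyme that detoxifies glyoxylate, and its neighbour C15H2orf54 on chromosome 15 rose as well. AGXT had 96.6% and 96.7% in siKDM5BC embryos, against 17.6% and 6.02% in uninjected ones, and C15H2orf54 had 96.7% and 93.7%, against 15.6% and 5.46%. LOC110259218 on chromosome 2 had 100% and 89.0%, against 13.8% and 6.06%. The only end gene that fell was MLYCD, which encodes malonyl-CoA decarboxylase, with 9.38% and 10.4% in siKDM5BC embryos, against 23.2% and 18.5% (adjusted p = 0.0229). With 25 kb flanks 1703 of 1921 end genes rose and 0 fell. The share over all coding genes was not counted with these flanks, so this does not compare the ends with the rest.

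Between MII oocytes and blastocysts, H3K4me3 at the ends changed in both directions. Over all bins 32.1% rose and 7.67% fell in blastocysts, while among end bins 331 of 1772 rose (18.7%) and 461 fell (26%), against 33.3% and 6.08% of the other bins. The median difference was -1.61 points in end bins and 0.77 over all bins. The number of falls depended on the libraries and on the peaks used. It was 82 without MII oocyte replicate 2, 162 and 158 without blastocyst replicate 1 and 2, and 835 (with 261 rises) after scaling to the same total covered length. With peaks of −log10 q of 3 or more 948 end bins rose and 0 fell. Calls among the other bins were not counted in these alternative runs, so the counts do not compare the ends with the rest.

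Of all coding genes tested, 42.9% rose and 5.9% fell, and at the ends 557 of 1895 rose and 329 fell. LRPAP1, a chaperone of lipoprotein receptors on chromosome 8 (2129492 to 2145632), had 89.1% and 90.2% in blastocysts, against 6.09% and 4.78% in MII oocytes (difference 84.2 points, SE 4.41, adjusted p = 5.2e-08). SIRT7, a nucleolar deacetylase, had 80.1% and 82.4%, against 1.68% and 4.26%. P4HB, a protein disulphide isomerase that lies close to SIRT7 on chromosome 12, had 88.7% and 88.8%, against 11.1% and 21.3%.

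TMEM129, a ubiquitin ligase of the endoplasmic reticulum, TALDO1, the transaldolase of the pentose phosphate pathway, and BNIP3, a mitochondrial protein of mitophagy, rose by 61.3, 60.8 and 60.5 points. Among the falls, DPYSL4 on chromosome 14 (140497457 to 140511740), a gene of the dihydropyrimidinase-like family, had 5.87% and 6.89% in blastocysts, against 55.5% and 73.3% in MII oocytes (difference -58.0 points, SE 10.9, adjusted p = 0.000714). TSPAN32, TMEM255B and LOC110260401 had at most 6.73% in blastocysts and at least 40.8% in MII oocytes.

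H3K27me3 at the ends was nearly absent from the 2-cell lists. Over all bins 18.4% fell and 0% rose in 2-cell embryos relative to MII oocytes. Among 1728 end bins tested, 941 fell (54.5%), against 15.1% of the other bins, and 0 rose by limma (0 also at an unadjusted p under 0.05). The median difference was -5.04 points in end bins and -0.21 over all bins. The 2-cell lists covered only 1.98 and 1.25 Mb, against 69.0 and 59.7 Mb in MII oocytes. After scaling to the same total covered length 607 end bins were lower and 19 higher, and with peaks of −log10 q of 3 or more 245 of 720 end bins tested fell. Calls among the other bins were not counted in either run, so neither compares the ends with the rest.

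Of all coding genes tested, 20.7% fell and 0% rose, and 777 of 1697 end genes fell and 0 rose by limma (0 also at an unadjusted p under 0.05). SLC12A7, a potassium-chloride cotransporter on chromosome 16 (79356868 to 79396652), had 0.764% and 0% in 2-cell embryos, against 97.8% and 100% in MII oocytes (difference -98.5 points, SE 2.13, adjusted p = 2.65e-07). PXDN, peroxidasin, had 1.94% and 0.750% in 2-cell embryos, against 97.3% and 94.3% in MII oocytes. DPYSL4 had 1.40% and 0%, against 94.0% and 92.9%, SLC6A18, an amino acid transporter, had 0% and 0%, against 92.0% and 92.8%, and LOC110259218 had 0% and 0%, against 93.4% and 86.0%. DPYSL4 was thus covered by both marks in MII oocytes. It had 60.9% and 28.1% H3K4me3 coverage in 2-cell embryos, and 37.0% and 31.0% H3K27me3 coverage in blastocysts.

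From morula to blastocyst H3K27me3 was higher again. Over all bins 60.9% rose and 0.0197% fell, and of 1728 end bins tested 1279 rose (74.0%), against 59.6% of the other bins, and 0 fell by limma (0 also at an unadjusted p under 0.05). The median difference was 6.04 points in end bins and 2.04 over all bins. Blastocyst lists covered 77.7 and 98.1 Mb, against 10.3 and 12.9 Mb in morulae, and after scaling to the same total covered length 193 end bins were higher and 51 lower. With peaks of −log10 q of 3 or more, 114 of 720 end bins tested rose and 4 fell. Calls among the other bins were not counted after scaling or with this threshold, so these counts do not compare the ends with the rest.

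Of all coding genes tested, 49.3% rose and 0.0421% fell, and 970 of 1697 end genes rose and 0 fell by limma (0 also at an unadjusted p under 0.05). PLD6, a mitochondrial phospholipase of the piRNA pathway on chromosome 12 (61057896 to 61060681), had 77.9% and 84.7% in blastocysts, against 3.83% and 11.1% in morulae (difference 73.8 points, SE 3.11, adjusted p = 7.45e-06). It was listed at 0% in both MII oocyte libraries. FOXL1, a forkhead factor, had 48.6% and 75.7%, against 0% and 4.79%, and IRX4, an Iroquois factor of the cardiac ventricle, had 57.0% and 70.4%, against 2.82% and 5.40%. In MII oocytes FOXL1 had 92.2% and 88.9% and IRX4 had 82.3% and 94.8%.

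GUCA2B, which encodes uroguanylin, had 84.9% and 94.8% in blastocysts, against 35.5% and 26.1% in morulae. SPON2, which encodes a secreted matrix protein, had 45.3% and 72.8%, and SMOC2, which encodes another, had 53.4% and 70.2%, and neither exceeded 4.76% in morulae. SLC12A7, first among the genes that lost the mark after the oocyte stage, had 5.17% and 7.25% in blastocysts. CHRNA4 and BIRC7, named above for their rise in siKDM5BC embryos, had at most 1.45%, against at least 64.2% in MII oocytes. Other genes named for that loss had more in blastocysts. PXDN had 50.7% and 54.0%, LOC110259218 40.0% and 47.5%, DPYSL4 37.0% and 31.0%, and SLC6A18 22.1% and 36.9%. Whether SLC12A7, CHRNA4 and BIRC7 differ from other genes in regaining coverage was not tested.

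The counts of gene lists are read against all end genes tested. Of these, 82.5% rose in siKDM5BC embryos, and for H3K4me3 29.4% rose and 17.4% fell in blastocysts relative to MII oocytes. For H3K27me3, 45.8% had less coverage in 2-cell embryos than in MII oocytes and 57.2% had more in blastocysts than in morulae. Below, a gain or loss of a mark means more or less covered share in the peak lists.

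Imprinted genes are expressed from 1 parental copy, and of 33 genes matched to a list of genes imprinted in other mammals or lying in imprinted clusters, 17 lay in end bins. A block of 13 lay between 1.47 and 2.39 Mb of chromosome 2 (IGF2, INS, TH, ASCL2, TSPAN32, CD81, KCNQ1, CDKN1C, SLC22A18, PHLDA2, NAP1L4, OSBPL5 and DHCR7), so neighbours share flanking sequence and peaks. In 2-cell embryos 14 of 17 had less H3K27me3 than in MII oocytes and 0 more, with a median difference of -48.7 points, against -3.05 over all end genes and -0.31 over all genes. IGF2, a fetal growth factor, had 0% and 0% in 2-cell embryos, against 74.7% and 57.6% in MII oocytes, and ASCL2, a trophoblast transcription factor, had 0% and 0%, against 92.8% and 82.6%. KCNQ1, KCNK9 and GNAS did not pass and had at most 6.12% in MII oocytes.

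In siKDM5BC embryos 15 of these 17 had more H3K4me3 and 0 less, close to the 82.5% of all end genes, with a median difference of 52.5 points, against 25.1 over all end genes and 5.87 over all genes. TH, the first enzyme of catecholamine synthesis, had 87.6% and 79.5% in siKDM5BC embryos, against 7.07% and 4.46% in uninjected ones, and CDKN1C, a cell cycle inhibitor, had 87.1% and 75.6%, against 33.1% and 24.5%. KCNQ1 and KCNK9 did not pass. In blastocysts 6 of 17 had more H3K27me3 than in morulae and 0 less, a share below the 57.2% of all end genes. The median difference was 6.72 points, against 4.53 over all end genes. Among the 6 were ASCL2 with 61.7% and 71.9%, against 39.5% and 22.8%, and DLK1, a Notch-pathway ligand, with 40.1% and 39.8%, against 1.07% and 8.17%. H3K4me3 in blastocysts was higher than in MII oocytes at 4 (CD81, KCNQ1, NAP1L4 and GNAS) and lower at 4 (INS, TH, TSPAN32 and OSBPL5).

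**Figure D5:**
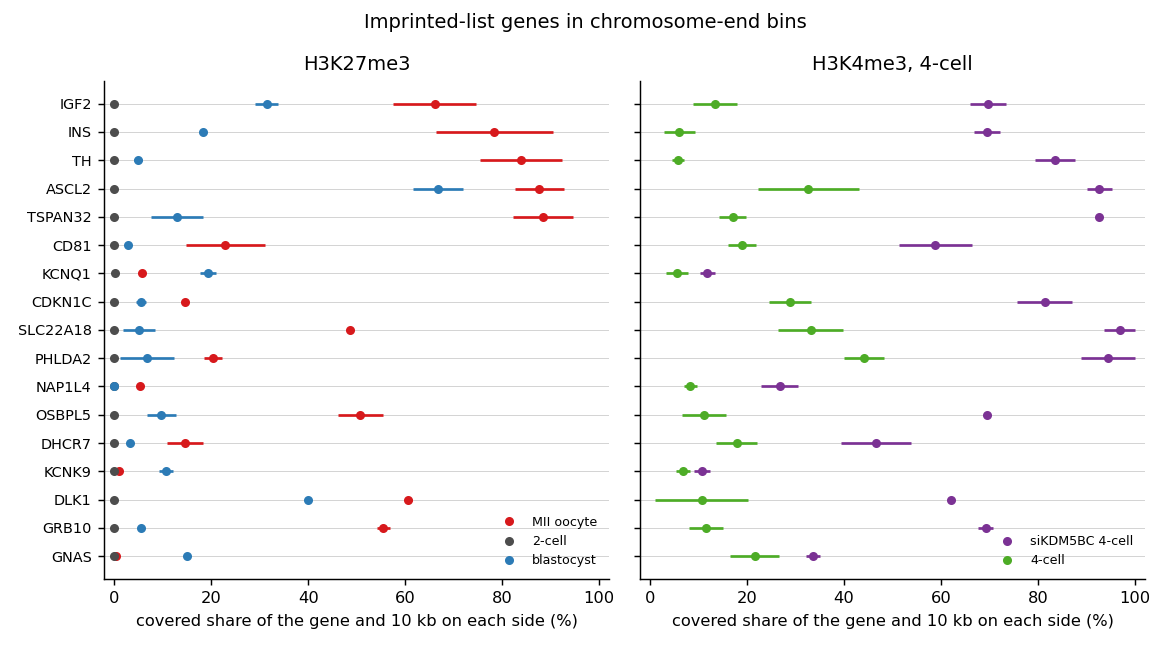
Covered share in percent of 17 imprinted-list genes with 10 kb on each side for H3K27me3 (left) and for H3K4me3 at the 4-cell stage (right); points are means of 2 libraries and lines join the libraries. IGF2, INS, TH, ASCL2 and TSPAN32 are each covered by more than 57% in both MII oocyte libraries for H3K27me3 and by 0% in 2-cell embryos.

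Developmental transcription factors were matched by symbol prefix, and 26 of 179 lay in end bins. In siKDM5BC embryos 24 of 26 rose and 0 fell (median 45.1 points), against 82.5% of all end genes (median 25.1 points). For H3K27me3, 19 of 24 tested fell in 2-cell embryos (median -30.6 points, against 45.8% and -3.05 points over all end genes) and 19 of 24 rose from morula to blastocyst (median 25.5 points, against 57.2% and 4.53 points over all end genes). Many members outside the ends changed in the same direction. There, 110 of 153 tested rose in siKDM5BC embryos, and for H3K27me3 85 of 140 fell in 2-cell embryos and 107 of 140 rose from morula to blastocyst. FOXC1 had 94.3% and 90.8% H3K27me3 coverage in blastocysts, against 34.2% and 38.9% in morulae, and GATA5, a factor of heart and gut endoderm, had 15.8% and 21.9%, against 0% and 0%. Between MII oocytes and blastocysts H3K4me3 rose at 4 and fell at 4. FOXH1, a partner of SMAD proteins in nodal signalling, had 52.3% and 57.8% in blastocysts, against 7.8% and 17.8% in MII oocytes. GATA5 had 6.1% and 5.5%, against 39.7% and 62.4%. The prefix also took in PAXIP1, a DNA damage response gene.

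Signalling genes of the WNT, FGF, BMP, GDF and Notch pathways, matched by prefix, had 13 of 91 members at the ends, 2 of which (FGFR1OP and BMP2K) share only the prefix. In siKDM5BC embryos 12 of 13 rose, 9 of 13 lost H3K27me3 in 2-cell embryos and 11 of 13 gained it from morula to blastocyst, against 82.5%, 45.8% and 57.2% of all end genes. None of these 3 comparisons had a call in the other direction. FGF3 had 0% and 0% in 2-cell embryos, against 78.5% and 64.6% in MII oocytes, and 46.0% and 43.5% in blastocysts, against 2.7% and 9.5% in morulae. For H3K4me3, 1 (BMP2K, a kinase gene) rose and 3 (FGF3, FGF4 and WNT7B) fell in blastocysts relative to MII oocytes.

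Collagen and other matrix genes had 19 of 96 members at the ends, including the lysosomal gene LAMP1 taken in by its prefix. In siKDM5BC embryos 16 of 19 rose and 0 fell, close to the 82.5% of all end genes. In blastocysts H3K4me3 rose at 2 and fell at 9 relative to MII oocytes (median -15.6 points, against 1.39 over all end genes). H3K27me3 fell at 12 of 19 in 2-cell embryos and rose at 14 of 19 from morula to blastocyst. COL18A1, a basement membrane collagen, had 5.7% and 5.5% H3K4me3 coverage in blastocysts, against 42.7% and 56.9% in MII oocytes. COL6A5 and COL6A6, at the poorly covered start of chromosome 13, did not pass for H3K4me3 in either comparison.

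Zinc finger genes had 30 of 276 members at the ends and ribosomal protein genes 10 of 85, counting RPS6KA2, a kinase gene taken in by its prefix. In blastocysts 16 of 30 zinc finger genes had more H3K4me3 than in MII oocytes and 2 had less, and 5 of 28 lost H3K27me3 in 2-cell embryos. In siKDM5BC embryos 24 of 30 rose and 0 fell, and 18 of 28 gained H3K27me3 from morula to blastocyst, both close to the shares of all end genes (82.5% and 57.2%). Among the ribosomal list, 8 of 10 rose in siKDM5BC embryos, close to the 82.5% of all end genes. In blastocysts 7 had more H3K4me3 than in MII oocytes and 1 less, the 1 being RPS6KA2. RPS6KA2 was also the only member to lose H3K27me3 in 2-cell embryos, with 0.2% and 0.1%, against 65.5% and 62.4% in MII oocytes, and 5 of 10 gained it from morula to blastocyst. RPS14 had 42.7% and 39.1% H3K4me3 coverage in blastocysts, against 7.3% and 2.3% in MII oocytes.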

How the data were processed

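Peaks were deposited as 1 broad peak list per library. Bowtie2 2.4.1 and MACS2 on susScr11 are named, per the submitters' processing notes. The MACS2 version, an input control and the calling threshold are not stated there. The deposited lists give a fold enrichment ratio, −log10 p and −log10 q, and a score, all by the authors with no further normalization. For the main values the peaks of a list were taken as they stood, without merging. Covered bases were counted per 100 kb bin and per coding gene. Coding genes came from the RefSeq annotation of Sscrofa11.1, the assembly of susScr11 (1 coding gene past the last peak was left out). Gene density was matched by direct weighting over bins with 0, 1, 2, 3, 4 and 5 or more gene midpoints. Ratio tests were exact sign-flip or permutation tests, with 100000 resamples (seed 1) for F, and Benjamini-Hochberg adjustment over 10 tests. Covered percent was fitted with limma 3.58.1 (R 4.3.3, trend), all libraries of a mark in 1 fit, over bins or genes covered in at least 2 libraries, adjusted over all of them. The fit was tested on simulated data.

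Genes named are the 6 largest rises and falls of each contrast among end genes past the threshold with groups that do not overlap, at most 2 per chromosome end. The 5 end bins with the highest mean over untreated stages in each mark are described too. Members of 8 lists in end bins were counted; the olfactory receptor prefix matched 0 genes, and the immunoglobulin and T cell receptor prefixes matched 7 end genes, all of other families (7 rose in siKDM5BC embryos, 2 had more H3K4me3 in blastocysts than in MII oocytes, 2 lost H3K27me3 in 2-cell embryos and 1 gained it from morula to blastocyst). The regions and lists were chosen with earlier results of these data known. Alternatives covered the peak threshold, joining of peaks, the width of the end, the density measure, scaling, filters, single libraries and the replicate block. The precision of each value is limited by 2 libraries per group and by unknown depth. Of the genes chosen by the naming rule, 2 are not reported here. Sequence was not used here.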

Additional observations from a re-analysis of the deposited data

Results flagged for a closer look

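The log2 ratio of end to other bins differed between developmental stages for both marks, by a test of the difference itself. For H3K4me3 the stage means spanned 1.99, highest in MII oocytes and lowest in morulae (permutation test of F over 16 libraries, p = 0.00184, adjusted 0.00920). For H3K27me3 they spanned 2.66, highest in MII oocytes and lowest at the 4-cell stage (permutation test of F over 12 libraries, p = 0.000320, adjusted 0.00320). Which stages differ from which was not tested.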

How the results depend on the processing

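The mean end-to-other log2 ratio of each mark stayed above 0 in every alternative run. At 1 common covered length (chosen after seeing the data) the H3K4me3 ratio (1.14), its value at equal gene density (0.84) and the stage spans of H3K4me3 (2.48) and H3K27me3 (4.18) no longer passed; the H3K4me3 span did not pass either with −log10 q of 3 or more (0.87), with 3.5-fold enrichment (2.17) or in percentage points (8.89). Joining peaks under 3 kb apart let the H3K27me3 ratio pass (1.42; 1.39 at equal gene density), and the broad share excess of H3K4me3 (14.1) and H3K27me3 (11.4). Broad share reversed with −log10 q of 3 or more (-9.81 and -12.0), and the H3K27me3 minus H3K4me3 difference reversed with 2 Mb ends (-0.0057) and in percentage points (-0.96). The causes were not tested.

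Counts of end bins changed as follows, higher then lower. In the alternative runs of this section, calls among the other bins were not counted. With −log10 q of 3 or more, blastocyst against MII oocyte gave 948 and 0, 2-cell against MII oocyte 245 lower, blastocyst against morula 114 and 4, and siKDM5BC against 4-cell 2 lower. Scaling to the same total covered length gave 477 and 93 for siKDM5BC, 835 lower for blastocyst against MII oocyte, 19 and 607 for 2-cell against MII oocyte, and 193 and 51 for blastocyst against morula. The log2 scale and the fit on 4 libraries each gave 1 lower for siKDM5BC.

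Leaving out single libraries gave 1083 to 1244 higher and 0 to 2 lower end bins for siKDM5BC, 225 to 267 higher and 82 to 516 lower for blastocyst against MII oocyte, 852 to 938 lower for 2-cell against MII oocyte, and 1063 to 1279 higher and 0 to 1 lower for blastocyst against morula. No ratio changed its call. It ran from 1.21 to 1.32 for H3K4me3 and from 1.33 to 1.39 for H3K27me3.

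Replicate numbers were not taken as pairs: with 2 pairs per contrast the deviations of same-numbered libraries correlated by 0.216, 0.0455, 0.11 and 0.155. With the replicate block the counts were 1265 higher for siKDM5BC, 320 higher and 444 lower for blastocyst against MII oocyte, 933 lower for 2-cell against MII oocyte and 1276 higher for blastocyst against morula; the siKDM5BC ratio difference was 0.66. The read depth behind each list is unknown, so a bin without a peak is not shown to lack the mark.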

Other observations

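The 2 ends of chromosome X, which were outside the comparisons, differed from each other. The outer 5 Mb at the far end were H3K27me3-covered by 15.9% and 14.2% in MII oocytes, against 1.45% and 1.22% of the rest of the chromosome, and the outer 5 Mb at the start by 0.202% and 0.191%. H3K4me3 of siKDM5BC embryos covered 22.4% and 22.8% of the far end and 1.11% and 0.933% of the start, against 3.25% and 3.23% of the rest. In blastocysts the far end had 9.74% and 15.4% H3K27me3 coverage, against 5.55% and 8.62% of the rest. These are values with no test.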
